A study of Mus musculus with 7 samples.

Results

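Chemokine ligands are the small secreted proteins that steer white blood cells, and their genes were followed here in 3 kinds of mouse lymph node. The array carried 40 probes whose annotated symbol was Ccl or Cxcl with a number, Xcl1 or Cx3cl1, of 41174 probes in all. They stood for 35 genes, of which 5 (Cxcl12, Ccl24, Ccl19, Ccl7 and Ccl25) had 2 probes. A probe was tested where at least 3 of the 7 arrays had it well above background, in the red or the green channel, which held for 32 of the 35 genes among 29911 genes and unnamed probes. Cxcl2, Cxcl11 and Cxcl15 did not pass. Cxcl4 and Cxcl7, the older names of the platelet chemokines Pf4 and Ppbp, and Ccl27, now Ccl27a, are given by their current symbols. The Ccl21c probe may also read the near-identical Ccl21a and Ccl21b transcripts, so its values are uncertain as to the copy.

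The study set the node of the pancreas (pancreatic lymph node, PLN) against the mesenteric node (MLN) of the gut and the inguinal node (ILN) of skin and mammary fat. All mice were female and 12 weeks old, and each RNA sample came from a pool of 5 mice from the same strain, with no treatment named in the labels. On every array the PLN carried the red dye Cy5, and the green dye Cy3 marked the MLN on 4 arrays (BALB/c, FVB, NOD, NOD.B10) or the ILN on 3 arrays (FVB, NOD, NOD.B10). NOD mice are prone to autoimmune diabetes, NOD.B10 mice carry another major histocompatibility complex on that background, and BALB/c and FVB are common inbred strains. For both NOD.B10 arrays the strain entry of the labels reads NOD while title and source read NOD.B10, which was followed. The labels do not say whether the same PLN pool served on both arrays of a strain. Each strain gave 1 pool per node and array, so p-values measure the spread between pools of different strains, and strains were not tested against each other.

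Chemokines bind G protein-coupled receptors on leukocytes, which then crawl towards the source or stop on a vessel wall. Homeostatic ligands are made without infection and build the compartments of a lymph node: Ccl19 and Ccl21 draw T cells and dendritic cells through Ccr7, and Cxcl13 draws B cells into follicles through Cxcr5. Inflammatory ligands are switched on by cytokines or microbial products and call in monocytes, granulocytes and effector lymphocytes, while dual ligands do both.

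All ratios are log2 on the scale after loess normalization, which removes the dye bias shared by spots of the same brightness. No array had the dyes swapped, so a dye effect of a single probe stays in PLN over MLN and in PLN over ILN. It cancels in ILN over MLN, the difference of both, which instead keeps any difference between the PLN pools. The 3 comparisons are therefore not independent of each other. The median of all genes was near 0 in every comparison, and it moved by over 0.1 only in ILN over MLN, to 0.13, when each array was centred on its median in place of loess. That setting keeps the dye bias that loess removes with brightness, and it lifted bright ligands in PLN over MLN, Ccl19 to 1.73 and Ccl5 to 1.63. The arrays had median spot signals of 68.0 to 105 intensity units in the red and 86.1 to 199 in the green channel. The arrays of the MLN from BALB/c and NOD were read on an earlier scanner, where the brightest ligands had higher levels in both channels. Ranges of summed marker levels in PLN and MLN samples take in both scanners, those in ILN samples only the later scanner. Such ranges therefore do not compare the nodes. T and B cell markers were well above background in all 3 nodes, with Cd4 so in 6 of 7 PLN, 3 of 4 MLN and 3 of 3 ILN samples and Pax5 in 4 of 7 PLN samples and all others.

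Between PLN and MLN 0 of the 32 ligands passed limma's test at an adjusted p under 0.05, as did 0% of all genes. The lowest adjusted p was 0.0826, and 11 ligands had an unadjusted p under 0.05 (6 higher and 5 lower in PLN), against 15.5% of all genes (9.11% higher and 6.41% lower). Between PLN and ILN 3 ligands passed, all lower in PLN (Ccl8, Ccl12 and Cx3cl1), against 1.96% of all genes (0.461% lower and 1.49% higher). There 14 of 32 had an unadjusted p under 0.05, 7 in each direction, against 20.4% of all genes (11.1% higher and 9.26% lower). Between ILN and MLN 2 ligands passed, both higher in ILN (Ccl5 and Ccl12), against 0.254% of all genes and 0.0435% called higher. An unadjusted p under 0.05 was reached there by 12 of 32 ligands (7 higher and 5 lower in ILN) against 6.6% of all genes (2.95% higher and 3.65% lower). In that comparison the array ratios of both groups did not overlap for 10 of 32 ligands, 5 in each direction, against 7.31% of all genes (3.62% with ILN higher and 3.7% with ILN lower). Over the 32 ligands the median ratio was 0.00 in PLN over MLN, -0.03 in PLN over ILN and 0.04 in ILN over MLN, close to the medians of all genes. Of the ligands, 10 had the same sign on all 4 arrays of the MLN, 7 above 0 and 3 below, where 30.2% of all genes did (15.1% above and 15.2% below). On all 3 arrays of the ILN it was 16, 8 above 0 and 8 below, against 44% of all genes (21% above and 23% below).

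**Figure D1:**
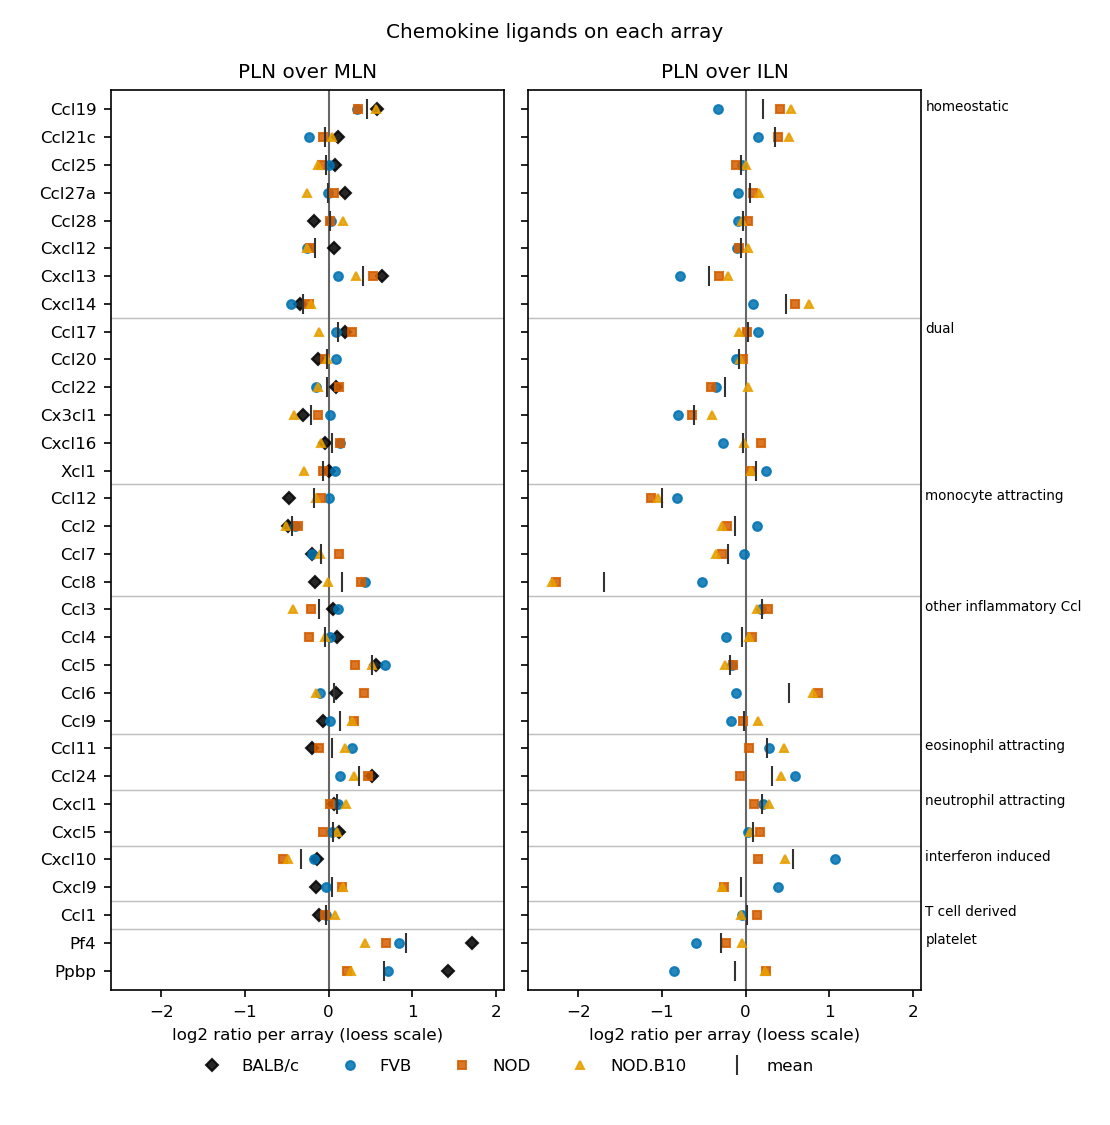
Log2 ratio of each tested ligand on each array, for PLN over MLN (left, 4 arrays) and PLN over ILN (right, 3 arrays). Symbols mark the strain, vertical ticks the mean, and grey lines part the ligand classes. Most ligands lie within 0.5 of 0, while Ccl8 and Ccl12 lie to the left of 0 on every array of the ILN.

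The homeostatic class held 8 genes, all tested, with medians of -0.02 in PLN over MLN, 0.01 in PLN over ILN and -0.02 in ILN over MLN. None passed the test in any of these comparisons when all 7 arrays were fitted without weights. Ccl19, which with Ccl21 holds T cells and dendritic cells in the T cell zone, measured 0.58 (BALB/c), 0.34 (FVB), 0.36 (NOD) and 0.56 (NOD.B10) on the arrays of the MLN. All 4 values lay above 0, with a mean of 0.46 ± 0.13 (SE of the fit, n = 4; limma adjusted p = 0.197). Against the ILN, Ccl19 measured -0.33 (FVB), 0.42 (NOD) and 0.55 (NOD.B10) (mean 0.21 ± 0.14, SE, n = 3; limma adjusted p = 0.429), so FVB stood on the other side of 0 from both NOD-background strains. Without that array Ccl19 passed in PLN over ILN (0.48, limma adjusted p = 0.0395). Its second probe gave 0.37 in PLN over MLN and 0.04 in PLN over ILN. Ccl19 in ILN over MLN was at 0.25 ± 0.19 (SE; limma adjusted p = 0.898), with 0.67 within FVB, -0.06 within NOD and 0.01 within NOD.B10.

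The Ccl21c probe, whose product lines lymphatic and high endothelial vessels as well as T zone stroma, measured 0.14 (FVB), 0.38 (NOD) and 0.52 (NOD.B10) in PLN over ILN. All lay above 0, with a mean of 0.35 ± 0.09 (SE, n = 3; limma adjusted p = 0.0847). Against the MLN its values were 0.11 (BALB/c), -0.24 (FVB), -0.07 (NOD) and 0.04 (NOD.B10), around a mean of -0.04 ± 0.08 (SE, n = 4; limma adjusted p = 0.800). The ILN over MLN value of the probe was -0.39 ± 0.12 (SE; limma adjusted p = 0.429), with array ratios that did not overlap. Within strain the values were -0.38 (FVB), -0.46 (NOD) and -0.48 (NOD.B10), an SD of 0.05. With median centring the ILN over MLN value turned to 0.62, so its sign rests on the normalization. Of the 5 lymphatic endothelial markers 3 rose in PLN over ILN and 1 fell in ILN over MLN, against 1.49% and 0.211% of all genes. The list medians were 0.60 and -0.52. The summed level of these 5 markers was 745 to 805 intensity units in ILN, 1159 to 1620 in PLN and 1295 to 1851 in MLN samples. The PLN and MLN ranges include the earlier scanner, the ILN range does not. The 5 high endothelial markers had list medians of -0.14 in PLN over ILN and 0.24 in ILN over MLN. In the latter 1 rose, against 0.0435% of all genes. The medians of the 6 fibroblastic reticular markers were -0.11 and -0.03, where 1 rose and 1 fell in that order, against 1.49% and 0.211% of all genes. The share of these cells in the Ccl21c values was not tested. In whole nodes, fewer cells of a type and less RNA per cell cannot be told apart, here and in every result that follows.

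Cxcl13, the B cell attractant of follicles, was higher in PLN than in MLN and lower in PLN than in ILN on every array. It measured 0.64 (BALB/c), 0.12 (FVB), 0.54 (NOD) and 0.33 (NOD.B10) in PLN over MLN and -0.78 (FVB), -0.31 (NOD) and -0.20 (NOD.B10) in PLN over ILN. The groups of arrays did not overlap. The means were 0.41 ± 0.11 and -0.43 ± 0.12 (SE, n = 4 and 3), which did not pass (limma adjusted p = 0.187 and 0.118). Cxcl13 in ILN over MLN was at 0.84 ± 0.16 (SE; 1.79-fold, limma adjusted p = 0.119), with 0.90 within FVB, 0.85 within NOD and 0.53 within NOD.B10. B cell markers had medians of 0.03, 0.07 and -0.04 in the 3 comparisons, and none of the 5 passed. Their summed level spanned 10373 to 12082 intensity units in ILN, 12517 to 40084 in MLN and 9629 to 35539 in PLN samples. The MLN and PLN ranges include the earlier scanner and the ILN range does not, so these ranges do not compare the nodes. Cxcr5, the receptor of Cxcl13, was at 0.07 in ILN over MLN (limma adjusted p = 0.963).

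Cxcl14, a ligand of epithelia and stroma whose receptor is debated, showed the opposite order of nodes. It measured -0.34 (BALB/c), -0.45 (FVB), -0.24 (NOD) and -0.21 (NOD.B10) against the MLN and 0.08 (FVB), 0.59 (NOD) and 0.76 (NOD.B10) against the ILN. Every value against the MLN lay below 0 and every value against the ILN above it. The means were -0.31 ± 0.10 (SE, n = 4; limma adjusted p = 0.240), which turned to 0.18 with median centring, and 0.48 ± 0.11 (SE, n = 3; limma adjusted p = 0.0751). Cxcl14 in ILN over MLN was at -0.79 ± 0.15 (SE; 1.73-fold lower, limma adjusted p = 0.110), with -0.54 within FVB, -0.83 within NOD and -0.97 within NOD.B10, and at -0.25 with median centring. Without the FVB array of the ILN it passed in PLN over ILN (0.68, limma adjusted p = 0.0121) and in ILN over MLN (-0.98, limma adjusted p = 0.00732). Dcn, a matrix gene among the markers of fibroblastic cells, rose by 0.56 in PLN over ILN and fell by 1.07 in ILN over MLN (limma adjusted p = 0.0352 and 0.0248). The other 5 markers of that list did not pass, and the list medians were -0.11 and -0.03.

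Cxcl12, which holds stem and plasma cells near stroma through Cxcr4, had 2 probes of different transcripts. The probe that stood for the gene measured 0.07 on the BALB/c and -0.26, -0.22 and -0.26 on the FVB, NOD and NOD.B10 arrays of the MLN, a mean of -0.17 ± 0.06 (SE, n = 4; limma adjusted p = 0.281). The BALB/c array stood apart from the other 3. The other probe measured -0.30 in PLN over MLN and below 0 on all 4 arrays, with -0.29 on the BALB/c array. Against the ILN the probes differed in sign, -0.05 ± 0.07 (SE of the fit, n = 3; limma adjusted p = 0.710) and 0.19 ± 0.28 (SD of the arrays, n = 3). The first probe in ILN over MLN was at -0.12 ± 0.10 (SE; limma adjusted p = 0.912). With median centring its values turned to 0.90 in PLN over MLN, 0.12 in PLN over ILN and 0.79 in ILN over MLN. Both probes lay below 0 within each of 3 strains, at -0.16, -0.14 and -0.29 for the first and -0.17, -0.66 and -0.65 for the second (FVB, NOD and NOD.B10).

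Ligands that call lymphocytes to mucosa and skin were Ccl25, Ccl27a and Ccl28. Ccl25, which draws Ccr9-bearing cells to the small intestine, was at -0.03 ± 0.05 in PLN over MLN, -0.05 ± 0.06 in PLN over ILN and 0.02 ± 0.08 in ILN over MLN (SE; limma adjusted p = 0.780, 0.645 and 0.990). Its second probe read -0.15 in PLN over MLN and 0.00 in PLN over ILN. Ccl27a, made by keratinocytes for Ccr10-bearing skin T cells, was at 0.00 ± 0.08, 0.06 ± 0.09 and -0.06 ± 0.12 in the same order (SE; limma adjusted p = 0.988, 0.735 and 0.973). Ccl28, a mucosal ligand of Ccr10, was not well above background in any of the 7 PLN samples, so its ratios against the PLN set signal against background and give no size of a difference. They were 0.01 ± 0.06, -0.03 ± 0.07 and 0.05 ± 0.09 (SE; limma adjusted p = 0.933, 0.800 and 0.973). The number of arrays limits the precision of all these values.

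The monocyte-attracting ligands were Ccl2, Ccl7, Ccl8 and Ccl12, of which Ccl2, Ccl7 and Ccl12 act mainly through Ccr2. This class held the largest difference of PLN over ILN and of ILN over MLN, that of Ccl8. With a normexp offset of 0 that of Ccl22, well above background in 3 of 7 PLN samples, was larger (-2.09 and 2.31 against -1.95 and 2.16). In PLN over ILN all 4 had means below 0, with a median of -0.61, and 2 of 4 fell, against 0.461% of all genes. Ccl8 measured -0.52 (FVB), -2.26 (NOD) and -2.31 (NOD.B10). FVB was thus nearer to 0 than either NOD-background strain. The mean was -1.70 ± 0.30 (SE, n = 3), 3.24-fold lower in PLN (limma adjusted p = 0.0311). The log2 level of Ccl8 in the ILN was 7.46 in FVB, 10.1 in NOD and 10.2 in NOD.B10. On the same arrays the PLN level was 6.94, 7.88 and 7.86. The MLN levels were 8.60 (BALB/c), 6.74 (FVB), 7.95 (NOD) and 7.60 (NOD.B10), and the PLN levels beside them 8.43, 7.17, 8.33 and 7.59. The ILN of both NOD-background strains therefore stood above every other sample, while the ILN of FVB lay within the range of PLN and MLN samples. Only 1 pool per strain was measured, so this strain difference was not tested.

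Ccl12 measured -0.82 (FVB), -1.13 (NOD) and -1.05 (NOD.B10) on the arrays of the ILN, so all strains lay close together. It fell in PLN (log2 -0.999 ± 0.09, SE, n = 3; limma adjusted p = 0.00307). Its ILN levels were 7.75, 8.29 and 8.15 in FVB, NOD and NOD.B10, against 6.93, 7.16 and 7.10 in the PLN of the same arrays. Against the MLN it measured -0.47 (BALB/c), 0.00 (FVB), -0.09 (NOD) and -0.15 (NOD.B10), a mean of -0.18 ± 0.08 (SE, n = 4; limma adjusted p = 0.337). The MLN levels of Ccl12 were 8.14 (BALB/c), 6.83 (FVB), 8.08 (NOD) and 7.21 (NOD.B10). Those of BALB/c and NOD, read on the earlier scanner, lay within the range of the ILN levels, so ILN over MLN rests on the ratios to the PLN. Ccl12 rose 1.77-fold in ILN over MLN (0.82 ± 0.12, SE; limma adjusted p = 0.0464), with 0.82 within FVB, 1.04 within NOD and 0.89 within NOD.B10. Ccl8 was at 1.86 ± 0.40 (SE; limma adjusted p = 0.164) in ILN over MLN, with 0.95, 2.65 and 2.30 within the same strains. It was called there without the FVB array of the ILN (2.45, limma adjusted p = 0.00145) and with array weights (2.13, 0.0313). For both ligands the array ratios of the ILN and the MLN did not overlap.

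**Figure D2:**
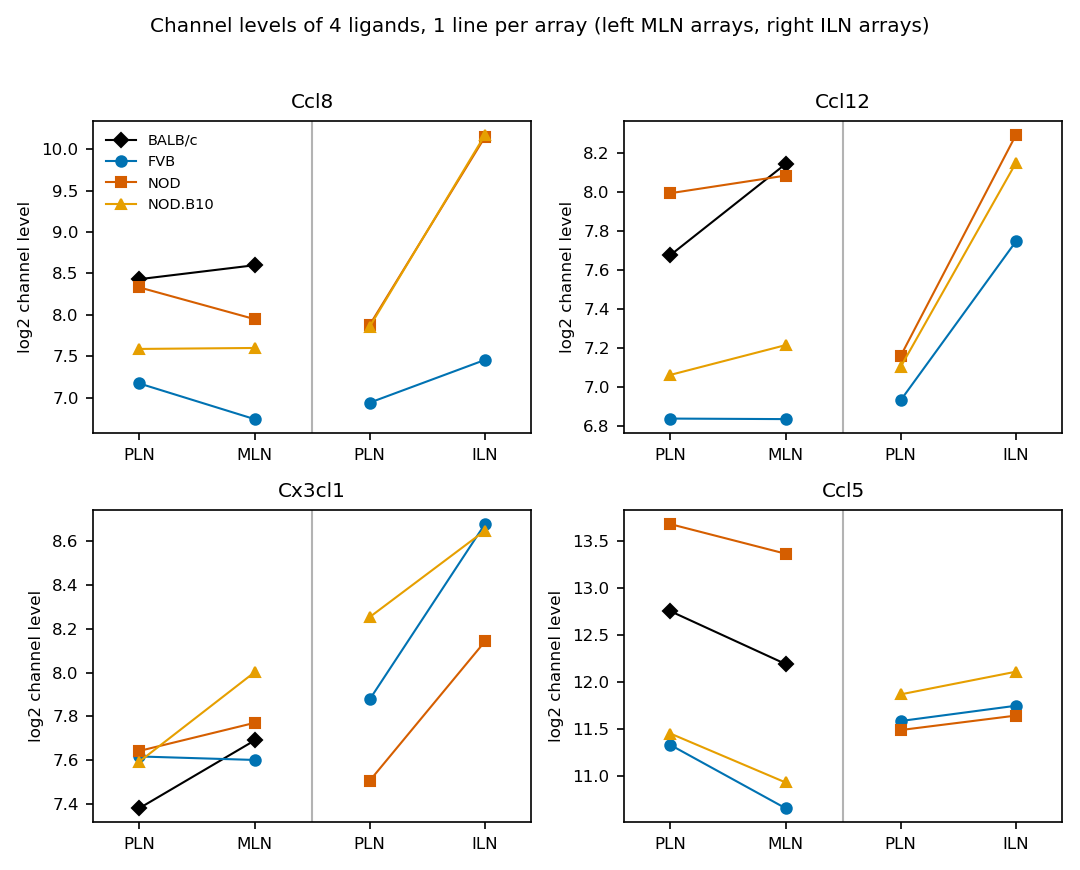
Log2 channel level of Ccl8, Ccl12, Cx3cl1 and Ccl5, with a line per array from the PLN to the other node (MLN arrays left, ILN arrays right of the grey line) and a symbol per strain. The lines of Ccl8 and Ccl12 climb from PLN to ILN in every strain, those of Ccl8 to 10.1 and 10.2 in NOD and NOD.B10 and to 7.46 in FVB.

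The calls rest on few arrays and on the normalization. Of 13 other settings, arrays left out aside, Ccl12 kept its call in 11 in PLN over ILN and in 4 in ILN over MLN, and Ccl8 kept its own in 6. Ccl8 lost it with a normexp offset of 0 (limma adjusted p = 0.110), Agilent's ratios (0.0770), the deposited values (0.102), median centring (0.991) and a fit of the ILN arrays alone (0.118). Ccl12 lost it in PLN over ILN with median centring (0.991), and in ILN over MLN also without background correction (0.0669), without a filter (0.0509) and with scanner as a block (0.128). Ccl8 lost its call in PLN over ILN when the ILN array of NOD.B10 (limma adjusted p = 0.298) or NOD (0.0814) or the MLN array of FVB (0.0603) was left out, and Ccl12 when that of the NOD.B10 ILN was (0.0542). Ccl12 in ILN over MLN kept its call with strain as a block (0.92, limma adjusted p = 0.0449), but with an array left out it kept it only without the BALB/c array of the MLN (0.0355) or the FVB array of the ILN (0.0404). All 3 arrays of the ILN were read on the later scanner. Within it the PLN over ILN values were the same, with a limma adjusted p of 0.00431 for Ccl12 and 0.0690 for Ccl8, and with scan day as a block both lost the call (-0.97, 0.0766 and -1.39, 0.364). Within the later scanner, ILN over MLN of Ccl12 was at 0.92 (limma adjusted p = 0.133).

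Ccl2, the main attractant of Ccr2-bearing monocytes, had another pattern. It measured -0.48 (BALB/c), -0.40 (FVB), -0.37 (NOD) and -0.51 (NOD.B10) against the MLN, all below 0 and close together (mean -0.44 ± 0.07, SE, n = 4; limma adjusted p = 0.0929). With median centring this value turned to 0.39, and it was called when the ILN array of FVB, which enters only its shared spread, was left out (limma adjusted p = 0.0452). Against the ILN it measured 0.14 (FVB), -0.23 (NOD) and -0.28 (NOD.B10), on both sides of 0. Ccl7 was at -0.09 in PLN over MLN and -0.21 in PLN over ILN, and its second probe at -0.04 and -0.15, with no call. The receptor gene Ccr2 fell in PLN over ILN, at -0.32 (FVB), -0.80 (NOD) and -0.78 (NOD.B10), a mean of -0.63 ± 0.10 (SE, n = 3; limma adjusted p = 0.0205). FVB was again nearest to 0. In ILN over MLN Ccr2 was at 0.60 (limma adjusted p = 0.188) with no overlap of the arrays.

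Markers of other cells were read on the same arrays. Of the 6 macrophage markers 5 rose in PLN over ILN and 2 fell in ILN over MLN, against 1.49% and 0.211% of all genes. The list medians were 0.45, 0.79 and 0.84 on the FVB, NOD and NOD.B10 arrays of the ILN. The summed level of these 6 markers was 6819 to 9152 intensity units in ILN, 14817 to 38074 in PLN and 15962 to 54012 in MLN samples. Here too only the PLN and MLN ranges include the earlier scanner. White adipose markers had medians of -0.25, 1.32 and 1.58 on the same 3 arrays of the ILN, and none of the 6 passed. Cd207, a Langerhans cell gene, fell by 0.56 in PLN over ILN (limma adjusted p = 0.00705), and the summed level of its list was 619 to 763 in ILN, 411 to 749 in PLN and 426 to 723 in MLN samples. The part of these cells in the ligand values was not tested.

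Ccl12 and Ccl8 are direct neighbours on chromosome 11, in a run that reads Ccl2, Ccl7, Ccl11, Ccl12, Ccl8, Ccl1 in the order of RefSeq's GRCm38.p6 table, with 1 further gene between Ccl11 and Ccl12. The PLN over ILN means along this run were -0.12, -0.21, 0.26, -0.999, -1.70 and 0.01. The called pair thus lay side by side. The next ligand gene on either side, Ccl11 and Ccl1, was not called (limma adjusted p = 0.221 and 0.921). Ccl1 was well above background in only 1 of the 3 PLN samples on these arrays. Cx3cl1 lies between Ccl22 and Ccl17 on chromosome 8, where the means were -0.25 for Ccl22, -0.61 for Cx3cl1 and 0.03 for Ccl17. Promoters were taken from RefSeq (GRCm38.p6), which gave them for 25 of the 35 ligand genes. Ccl5 had none in the table. The 250 bases before the start of the 3 ligands that fell in PLN over ILN are shown because these were the calls of that comparison. All are from the plus strand, and the letters TATAAA, searched for as a TATA box, are in capitals.
Ccl12, chr11:82101595-82101844: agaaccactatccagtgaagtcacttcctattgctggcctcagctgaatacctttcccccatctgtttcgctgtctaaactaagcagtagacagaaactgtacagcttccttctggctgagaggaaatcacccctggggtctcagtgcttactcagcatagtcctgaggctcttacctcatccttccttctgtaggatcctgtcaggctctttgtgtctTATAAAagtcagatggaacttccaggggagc
Ccl8, chr11:82114935-82115184: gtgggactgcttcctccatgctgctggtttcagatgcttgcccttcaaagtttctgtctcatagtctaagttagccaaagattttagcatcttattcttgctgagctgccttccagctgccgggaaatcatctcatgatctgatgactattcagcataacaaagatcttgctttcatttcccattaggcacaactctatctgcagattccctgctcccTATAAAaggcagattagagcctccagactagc
Cx3cl1, chr8:94771930-94772179: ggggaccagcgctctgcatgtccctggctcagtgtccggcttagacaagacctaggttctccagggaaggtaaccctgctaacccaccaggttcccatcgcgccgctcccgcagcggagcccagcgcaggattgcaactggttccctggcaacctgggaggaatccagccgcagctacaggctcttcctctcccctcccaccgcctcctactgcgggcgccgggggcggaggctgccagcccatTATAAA
TATAAA began at position -31 from the start in Ccl12, -32 in Ccl8 and -6 in Cx3cl1, on the strand of the gene. It was found, on either strand, in 9 of 28 promoters of the ligand genes and in 13.6% of 32851 promoters of the same 300 bases (250 before and 50 after the start). Of 4 other motifs searched on both strands in the same way, none was in these 3 promoters. They were the interferon response element (3 of 28 ligand promoters and 3.44% of all, among them Cxcl10), TTCNNNGAA of the GAS element (2 and 8.3%), the NF-kB site (4 and 1.63%) and TGANTCA of AP-1 (6 and 7.81%). A match is a description of letters, also where it lies next to the start as in Cx3cl1, and was not set against any binding data.

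The dual class held 6 genes, all tested, with medians of -0.02 in PLN over MLN, -0.05 in PLN over ILN and 0.07 in ILN over MLN. In PLN over ILN 1 of 6 fell, against 0.461% of all genes. Cx3cl1, the membrane-bound ligand of Cx3cr1 on monocytes and effector lymphocytes, measured -0.80 (FVB), -0.64 (NOD) and -0.40 (NOD.B10) on the arrays of the ILN. All lay below 0, and here FVB was the farthest from it. The gene fell 1.53-fold in PLN (log2 -0.61 ± 0.10, SE, n = 3; limma adjusted p = 0.0200). Its levels were 8.68, 8.14 and 8.65 in the ILN of FVB, NOD and NOD.B10, and 7.38 to 8.25 in all PLN samples. Of 13 other settings 6 kept the call. It was lost without each array of the ILN in turn (limma adjusted p = 0.0757 without FVB, 0.0559 without NOD and 0.0867 without NOD.B10), and was at 0.0530 within the later scanner and 0.150 with scan day as a block (-0.72). Against the MLN Cx3cl1 measured -0.31 (BALB/c), 0.02 (FVB), -0.13 (NOD) and -0.41 (NOD.B10), with a mean of -0.21 that turned to 0.36 with median centring. In ILN over MLN it was at 0.40 (limma adjusted p = 0.503), with 0.82 within FVB, 0.51 within NOD and -0.01 within NOD.B10. Cx3cr1, its receptor, was at 0.30 in PLN over ILN (limma adjusted p = 0.157).

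With the main normalization the other dual ligands lay near 0. Ccl17 and Ccl22, which dendritic cells make for Ccr4-bearing T cells, were at 0.11 and -0.01 in PLN over MLN and 0.03 and -0.25 in PLN over ILN. Ccl22 was well above background in 3 of 7 PLN samples only, and with a normexp offset of 0 it was at -2.09 in PLN over ILN. Cxcl16, the ligand of Cxcr6, was at 0.04 and -0.03, Ccl20, the ligand of Ccr6, at -0.02 and -0.07, and Xcl1, which cross-presenting dendritic cells read through Xcr1, at -0.07 and 0.12. With Agilent's own ratios Ccl20 was at 0.36 and 0.22 and Xcl1 at -0.05 and 0.36, so these sizes rest on the background correction and scaling. None of these 5 dual ligands was called in any comparison.

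The other inflammatory Ccl ligands (Ccl3, Ccl4, Ccl5, Ccl6 and Ccl9), made by T, natural killer and myeloid cells, held 5 tested genes. Of these 1 rose in ILN over MLN, against 0.0435% of all genes. Ccl5, stored by memory and cytotoxic lymphocytes, measured 0.56 (BALB/c), 0.68 (FVB), 0.32 (NOD) and 0.52 (NOD.B10) in PLN over MLN. Against the ILN it measured -0.16 (FVB), -0.15 (NOD) and -0.24 (NOD.B10). Both groups stood on their own side of 0 with little spread. The means were 0.52 ± 0.06 and -0.19 ± 0.07 (SE, n = 4 and 3; limma adjusted p = 0.0826 and 0.192). Ccl5 rose 1.63-fold in ILN over MLN (0.71 ± 0.09, SE; limma adjusted p = 0.0267), with 0.84 within FVB, 0.47 within NOD and 0.76 within NOD.B10. Of the 7 arrays left out in turn the call held only without the NOD array of the MLN (0.0196), and without the others the adjusted p was 0.0515 to 0.193. Of 13 other settings 5 kept the call. With strain as a block it was at 0.69 (limma adjusted p = 0.157), and within the later scanner at 0.79 (limma adjusted p = 0.106).

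Levels of Ccl5 showed the spread between arrays behind these ratios. In the PLN they were 12.8 (BALB/c), 11.3 (FVB), 13.7 (NOD) and 11.5 (NOD.B10) on the arrays of the MLN. In the MLN they were 12.2, 10.7, 13.4 and 10.9, so both channels stood higher on the arrays of the earlier scanner (BALB/c and NOD), and the ratio was 0.56 and 0.32 there against 0.68 and 0.52 on the later scanner. The ILN levels were 11.7, 11.6 and 12.1. Natural killer and cytotoxic markers had a list median of -0.23 in PLN over ILN and of 0.14 in ILN over MLN, where none passed. In PLN over ILN 2 of these 7 markers fell (Klrd1 by 0.72 and Nkg7 by 0.46), against 0.461% of all genes. Their summed level was 2831 to 3565 intensity units in ILN, 1895 to 3562 in MLN and 1864 to 3558 in PLN samples, and its part in the Ccl5 values was not tested.

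Ccl6, a ligand of Ccr1 from myeloid cells, was at 0.52 in PLN over ILN, with -0.11 (FVB), 0.86 (NOD) and 0.81 (NOD.B10), and did not pass (limma adjusted p = 0.168). FVB again stood apart from both NOD-background strains. Without the FVB array of the ILN Ccl6 was called (0.84, limma adjusted p = 0.0258). Ccl3 and Ccl4, the inflammatory proteins of macrophages and T cells, were at -0.12 and -0.04 in PLN over MLN and 0.20 and -0.04 in PLN over ILN. Ccl3 was well above background in 4 of 7 PLN samples. Ccl9 was at 0.14 and -0.02.

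The interferon-induced ligands of Cxcr3 were Cxcl9 and Cxcl10, since Cxcl11 was not tested. Cxcl10 measured -0.13 (BALB/c), -0.17 (FVB), -0.54 (NOD) and -0.49 (NOD.B10) against the MLN and 1.07 (FVB), 0.15 (NOD) and 0.48 (NOD.B10) against the ILN. All 4 values lay below 0 against the MLN and all 3 above 0 against the ILN. The means were -0.33 (limma adjusted p = 0.291), which turned to 0.45 with median centring, and 0.57 (limma adjusted p = 0.104). Cxcl10 in ILN over MLN was at -0.90 ± 0.20 (SE; limma adjusted p = 0.193), with -1.24, -0.70 and -0.97 within FVB, NOD and NOD.B10, and at -0.06 with median centring. Its levels were 6.95, 7.74 and 7.19 in the ILN of these strains and 8.31 or more in all MLN samples, with no overlap. Cxcl9 did not share this order, with 0.04 in PLN over MLN and -0.05 in PLN over ILN, and with -0.42 within FVB, 0.42 within NOD and 0.44 within NOD.B10 in ILN over MLN.

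The eosinophil attractants Ccl11 and Ccl24, ligands of Ccr3, were at 0.04 and 0.36 in PLN over MLN and 0.26 and 0.32 in PLN over ILN, with no call. Ccl24 lay above 0 on all 4 arrays of the MLN with both probes. Its PLN over MLN value was 0.83 with a normexp offset of 0, 1.67 with Agilent's own ratios and 1.64 in the deposited values, so its size rests on the background correction and scaling. Its second probe read 0.25 in PLN over MLN and 0.08 in PLN over ILN. Of the neutrophil attractants, which signal through Cxcr2, Cxcl1 was at 0.10 and 0.19 and above 0 on all 7 arrays, and Cxcl5 at 0.05 and 0.09. Cxcl5 was well above background in only 4 of 7 PLN samples. With Agilent's own ratios Cxcl1 was at 0.68 and 0.98 and Cxcl5 at 0.49 and 0.27. Their sizes too rest on the background correction and scaling. Cxcl2 and Cxcl15 were each well above background in 1 of 7 PLN samples. Ccl1, a T cell product, was at -0.03 and 0.01, and at -0.19 and 0.41 with Agilent's own ratios.

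With the main normalization the platelet chemokines had the largest ratios in PLN over MLN. With Agilent's own ratios that of Ccl24 was larger (1.67 against 1.47 for Ppbp and 1.09 for Pf4), and with median centring Ccl19 was at 1.73 against 1.65 for Pf4 and 0.94 for Ppbp. Pf4 measured 1.72 (BALB/c), 0.84 (FVB), 0.69 (NOD) and 0.44 (NOD.B10), a mean of 0.92 ± 0.18 (SE, n = 4; limma adjusted p = 0.124). Ppbp, the precursor of a neutrophil attractant, measured 1.43, 0.71, 0.22 and 0.26, a mean of 0.66 ± 0.23 (SE, n = 4; limma adjusted p = 0.262). Both lay above 0 on every array and farthest from it on the BALB/c array. Against the ILN Pf4 was at -0.60 (FVB), -0.23 (NOD) and -0.04 (NOD.B10), and Ppbp at -0.86, 0.24 and 0.24. Pf4 in ILN over MLN was at 1.21 (limma adjusted p = 0.198) with no overlap of the arrays, and 1.43, 0.92 and 0.48 within FVB, NOD and NOD.B10.

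The BALB/c array of the MLN and the FVB array of the ILN, the extremes for Pf4 and Ppbp, were the extremes for blood markers too. The median of the tested erythroid markers (Hba-a1 and Alas2) was 3.12 on the BALB/c array, 0.96 to 1.32 on the other arrays of the MLN and -0.79, 0.43 and 0.48 on the FVB, NOD and NOD.B10 arrays of the ILN. The median of 7 neutrophil markers was 1.74 on the BALB/c array, 0.04 to 0.40 on the other arrays of the MLN and -0.41 on the FVB array of the ILN. Summed levels of the erythroid markers spanned 1269 to 84060 intensity units in PLN, 1114 to 10893 in MLN and 844 to 11906 in ILN samples. The platelet glycoprotein genes Gp9 (0.08), Gp1bb (0.09) and Gp1ba (0.13) and the integrin gene Itga2b (0.00) were near 0 in PLN over MLN. Gp9 and Gp1bb were well above background in only 4 of 7 PLN samples and Gp1ba in 3. The ratios of these 3 dim genes therefore say little about the size of a difference. Itga2b, so in 6 of 7 PLN samples, rose by 0.68 in PLN over ILN (limma adjusted p = 0.00856). The part of blood in the Pf4 and Ppbp values was not tested.

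**Figure D3:**
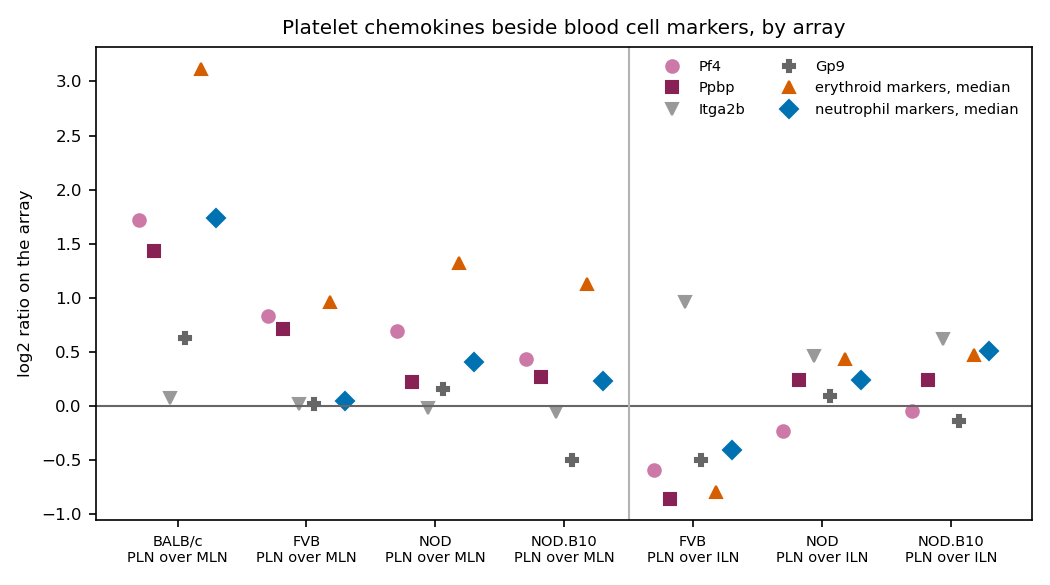
Log2 ratio of Pf4 and Ppbp on each array, beside the platelet genes Itga2b and Gp9 and the medians of the erythroid and neutrophil markers. On the BALB/c array Pf4 is at 1.72 and the erythroid median at 3.12, and on the FVB array of the ILN both are below 0, at -0.60 and -0.79.

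Within strains, 6 of 32 ligands were higher in ILN than in MLN in all 3 strains (Ccl5, Ccl8, Ccl9, Ccl12, Cxcl13 and Pf4) against 13% of all genes. Another 9 were lower in all 3 (Ccl2, Ccl3, Ccl11, Ccl21c, Cxcl1, Cxcl10, Cxcl12, Cxcl14 and Xcl1) against 12.6%. With median centring Ccl3, Cxcl10 and Cxcl14 of these 9 stayed below 0 in the fit of all arrays. The other 6 turned, Ccl2 to 0.47, Ccl11 to 0.35, Ccl21c to 0.62, Cxcl1 to 0.11, Cxcl12 to 0.79 and Xcl1 to 0.19.

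**Figure D4:**
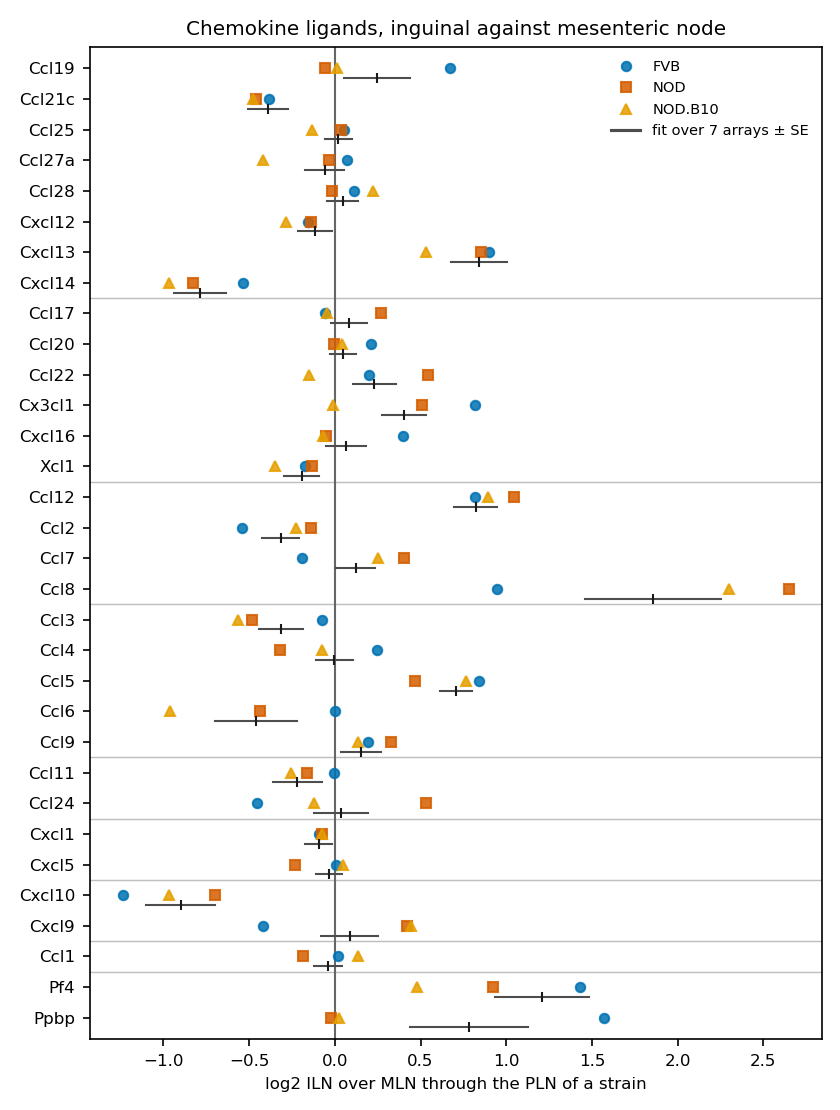
Log2 ILN over MLN of each tested ligand within FVB, NOD and NOD.B10, taken through the PLN of the strain, with the value fitted to all 7 arrays and its standard error as the bar below. Ccl8 reaches 2.65 in NOD and 2.30 in NOD.B10 against 0.95 in FVB, and Cxcl10 and Cxcl14 lie below 0 in all 3 strains.

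Of 23 chemokine receptor genes examined 21 were tested. Ccr2 in PLN over ILN was the only one called in any comparison, against 1.96% of all genes there (0.461% lower). The share of all genes called was 0% in PLN over MLN and 0.254% in ILN over MLN. The medians of the 21 receptor genes were 0.01 in PLN over MLN, 0.09 in PLN over ILN and 0.01 in ILN over MLN. The largest ratios beside Ccr2 were those of Ackr3, a scavenger of Cxcl12 (0.39), and Cxcr6 (0.31) in PLN over MLN and of Ccrl2 (0.46) and Ackr1, the erythroid and endothelial scavenger (0.37), in PLN over ILN. In ILN over MLN they were those of Cxcr4 (-0.36) and Cxcr6 (0.30). No ratio against the PLN is given for Ccr1, whose PLN spots were never well above background. Ccr7, which reads Ccl19 and Ccl21, was at -0.20 in PLN over MLN and -0.30 in PLN over ILN (limma adjusted p = 0.337 and 0.174). Ccr9, the receptor of Ccl25, was at -0.28 in ILN over MLN (limma adjusted p = 0.791), with no overlap of the arrays.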

How the data were processed

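RNA of the PLN (Cy5) and of the MLN or ILN (Cy3) was hybridised together on 7 Agilent arrays. Spot and background intensity values were deposited as Agilent Feature Extraction 8.5.1.1 wrote them, per the file headers, with its log10 ratio of processed signals. The deposited log2 ratios of the authors' value table correlated with the log2 ratio of processed signals at 0.999892 to 0.999995 per array, with a shift of 0.00175 to 0.0798. For dim spots, such as those of Ccl22 and Ccl28, they depart from Agilent's ratio by more than a shift. Their making and the genome build are not stated in the labels or headers.

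In R 4.3.3 with limma 3.58.1, intensities were corrected with normexp (offset 50) and normalized by loess within arrays. Control spots had no weight, outlier spots were left out, and spots of a probe were averaged. The brightest kept probe stood for a gene. Genes were named from RefSeq accessions (22072 probes) or the description (2102); 17000 probes stayed unnamed. Both PLN comparisons were fitted with lmFit and eBayes over all 7 arrays, ILN over MLN as their difference, with two-sided p-values adjusted by Benjamini-Hochberg over 29911 genes and unnamed probes and called at 0.05. Within-strain ILN over MLN is the difference between a strain's arrays. Channel levels followed Aquantile normalization and were not compared between probes. The method was tested on simulated data.

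Members and lists were chosen with earlier results of these data known. Called members, all homeostatic members and, per comparison, up to 3 others with the largest ratios were named by rule, as were called receptors or the 2 largest; the other genes named were chosen after their values were seen. Of the receptor list, 1 gene is not reported here. Other background corrections, normalizations, filters, weights, blocks and left-out arrays were tried. Promoters were read with Python 3.11.15 and figures drawn with matplotlib 3.10.9.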

Additional observations from a re-analysis of the deposited data

Results flagged for a closer look

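Among the 32 ligands, the 4 arrays of PLN over MLN were searched for an array that stood apart by Dixon's criterion, which chance meets in about 1 of 20 groups. It was met by 1 ligand. The probe that stood for Cxcl12 read 0.0676 on the BALB/c array, while the other 3 arrays read -0.26 to -0.22, a gap of 0.879 of the whole range. The second Cxcl12 probe did not set that array apart, with -0.29 there and values from -0.40 to -0.22 elsewhere.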

How the results depend on the processing

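Counts of calls depended on the settings more than directions did. The calls numbered 585 genes (3 ligands) in PLN over ILN, 76 genes (2 ligands) in ILN over MLN and 0 in PLN over MLN. With a normexp offset of 0 they were 49 (1) in PLN over ILN and 3 (0) in ILN over MLN, with Agilent's own ratios 65 (1) and 12 (0), with the deposited values 32 (1) and 0 (0), with median centring 0 (0) and 0 (0), and with scan day as a block 15 (0) and 0 (0). Without background correction PLN over MLN had 37 (1), and ILN over MLN 1 ligand. Without a filter ILN over MLN had 1 ligand. With array weights the counts were 189 (3) in PLN over MLN, 1553 (5) in PLN over ILN and 177 (4) in ILN over MLN. With scanner as a block ILN over MLN had 18 (0). Within the later scanner the counts were 20 in PLN over MLN, 332 (1) in PLN over ILN and 7 (0) in ILN over MLN. PLN over ILN fitted on its own arrays gave 207 (1). With strain as a replicate block, pairing the arrays of FVB, NOD and NOD.B10, ILN over MLN had 26 (1). With an array left out in turn, the counts were 0 to 46 (0 to 1 ligand) in PLN over MLN, 32 to 737 (0 to 5) in PLN over ILN and 15 to 88 (0 to 3) in ILN over MLN; the lowest PLN over ILN count was without the NOD.B10 array. The cause of these shifts was not tested.

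Array weights also called Ccl2 (-0.42), Ccl5 (0.51) and Pf4 (1.03) in PLN over MLN, Ccl21c (0.41) and Cxcl14 (0.58) in PLN over ILN and Cxcl14 (-0.90) and Ccl8 (2.13) in ILN over MLN, and no background correction called Ccl5 (0.52) in PLN over MLN. The 5 called ligand results kept their direction under every setting run. Median centring turned the sign of 13 of the 32 ligands in PLN over MLN, 5 in PLN over ILN and 10 in ILN over MLN, among them 3, 0 and 3 whose value was over 0.25 in size. No array had swapped dyes, each strain gave 1 pool per node and array, and signal near background limits Ccl28, Ccl1 and Ccl22 and also Ccl3 and Cxcl5.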
